A study of Mus musculus with 7 samples.

Results

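The array of the induced hepatocyte-like (iHep) cell type that the labels call 4α1 was set against the arrays of the types 4α2 and 4α3. A gene counted as apart when its level in 4α1 lay at least 2-fold above, or at least 2-fold below, its level in both other types. Of 18126 genes that were well above background on at least 1 iHep array, out of 27577 genes and unnamed probes on the array, 404 were higher in 4α1 (2.23% of the genes compared) and 242 were lower (1.34%). All the iHep cells were derived from mouse embryonic fibroblasts (MEF), and all cells had the C57BL/6 background. The reference arrays were 3 of MEF, described by the study as individually prepared from embryos of 13.5 days post coitum, and 1 of hepatocytes from adult mouse liver. By a median-based spread, which leaves out the tails, MEF 2 and MEF 3 differed by less than repeat spots predict and were counted as 1 sample. Even so, 308 genes were at least 2-fold apart between them. Total RNA was labelled with Cy3 and hybridised to 1-colour Agilent arrays, 1 array per sample. The study is known to have turned fibroblasts into iHep cells with Hnf4a and a member of the Foxa family. The meaning of the digit in 4α1, 4α2 and 4α3 was not found in the labels. Whether the probes of these factors also read introduced transcripts, and whether a type is a single clone, is not given there either.

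Each type has 1 array, so no difference between types has a replicate check of its own, and the statements below are rules of size on 3 arrays. A limma fit that borrows its spread from the MEF samples is given with the counts. A level is log2 of the processed signal minus the 75th percentile of the array, so that 0 is the 75th percentile and 1 unit is a factor of 2. Where a probe was not well above background, its side of a difference was raised to the dimmest level well above background on that array (-5.88 in 4α1, -6.12 in 4α2 and -6.16 in 4α3), and the fold is then given as "at least". Repeat spots of a probe on the 4α1 array scattered with an SD of 0.20 below a signal of 100 and of 0.05 to 0.07 above it. This is technical error within 1 array and says nothing of the spread between cultures. The 3 iHep arrays and MEF 1 shared 1 slide, and position on the slide cannot be told apart from type.

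Hepatocytes are the main epithelial cells of the liver. They make most plasma proteins, clear nitrogen through the urea cycle and oxidise drugs with cytochrome P450 enzymes, under a network of transcription factors that includes Hnf4a, the Foxa family and the bile acid receptor Nr1h4. Fibroblasts, the starting cells, secrete collagens and other matrix proteins and carry surface markers such as Thy1. A conversion from fibroblast to hepatocyte can therefore be read on both sides, by which matrix genes are still transcribed and which liver genes have been started.

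Type 4α2 was higher than both others in 643 genes (3.55%) and lower in 213 (1.18%), and type 4α3 was higher in 739 (4.08%) and lower in 997 (5.5%). MEF 1 differed from both MEF 2 and MEF 3, run on another slide, by the same rule in 717 genes upward (3.77% of 19039) and 650 downward (3.41%). Since MEF 2 and MEF 3 count as 1 sample, this is in effect a single comparison and not like for like with the rule on 2 different types. Between MEF 2 and MEF 3 themselves, a single pair of arrays, 308 genes were at least 2-fold apart in either direction. Taken singly, in 2 comparisons that share the 4α1 array, 4α1 was higher than 4α2 in 673 genes (3.71%) and lower in 944 (5.21%), and it was higher than 4α3 in 1625 genes (8.97%) and lower in 1177 (6.49%). Over the genes compared, levels in 4α1 correlated with those in 4α2 at r = 0.968 and with those in 4α3 at r = 0.954, across genes that are not independent replicates. In a limma fit whose only spread came from the MEF samples, 0 genes passed an adjusted p of 0.05 against both others in either direction. That fit takes the same single-array differences as the rule of size and holds no spread between iHep cultures. It is therefore not a separate check of the 404 and 242 genes.

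At least 4-fold differences from both types were seen for 132 higher and 44 lower genes, and at least 8-fold ones for 40 and 8. Genes next to the limit were St6galnac3 (smaller of its differences 1.003) just inside and Vax2 (0.999) and Strip2 (0.997) just outside on the higher side. On the lower side they were Ccrl2 (1.001) and Vil1 (1.009) inside and Cd1d2 (0.99962) and Nap1l2 (0.994) outside.

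**Figure D1:**
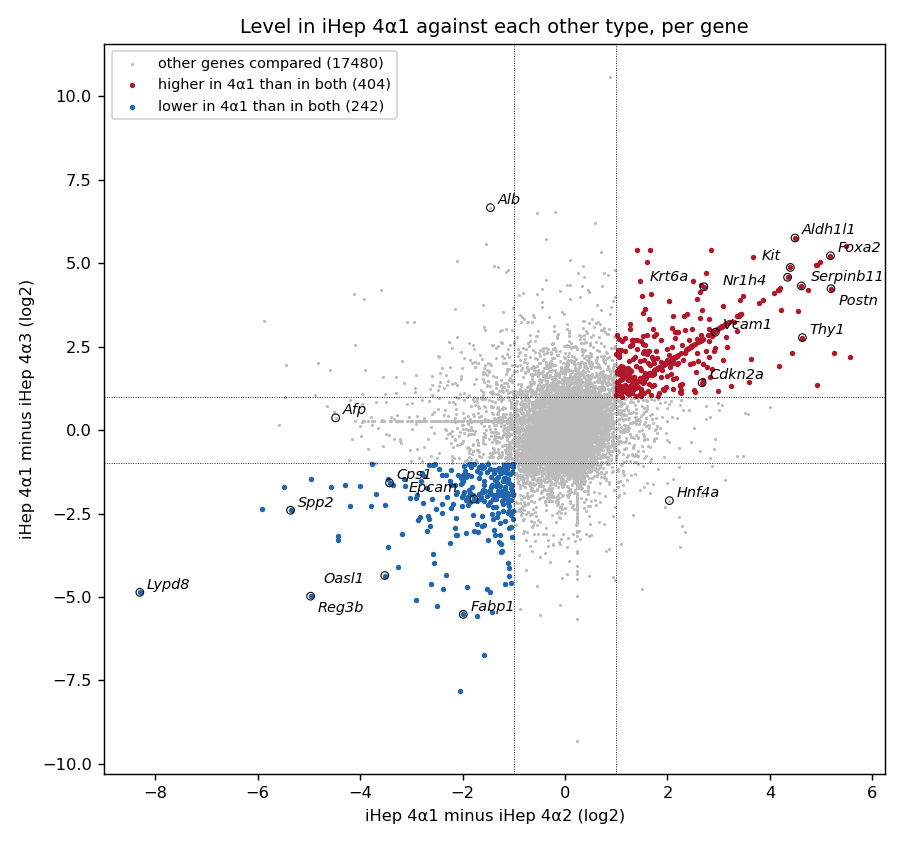
Difference of iHep 4α1 from iHep 4α2 (horizontal axis, log2) and from iHep 4α3 (vertical axis, log2) for the 18126 genes compared, 1 point per gene and 1 array per type. Dotted lines mark 2-fold. The 404 genes higher than in both lie in the upper right corner and the 242 lower ones in the lower left. Points on a straight diagonal or on horizontal or vertical streaks are genes below background on an array and held at its limit. Alb, Afp and Hnf4a are named although they are not apart from both types.

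The higher genes hold a group of dim spots whose place on the array has to be given first. Of the 404 higher genes, 156 were well above background in 4α1 alone of the iHep arrays, and 191 on all 3. At the level of probes, 207 single-spot probes were detected in 4α1 alone, and 83 of them (40.1%) had another such spot of a different gene within 2 rows and 2 columns. The shares were 75 of 228 (32.9%) for 4α2 and 34 of 155 (21.9%) for 4α3. Pixels were also less even in these spots of the 4α1 array, where 18.4% had a pixel SD above 0.7 of the background-subtracted mean. The share was 2.63% in 4α2 and 1.29% in 4α3. Over all dim detected spots it was 6.69% in 4α1, 5.28% in 4α2 and 1.84% in 4α3. In all, 63 of the 404 higher genes rest on such neighbouring spots, among them Adamts8, Erich6b, Asb16, Acer1 and the olfactory receptor genes Olfr875 and Olfr90. Their part in the result was not tested. Without them 341 higher genes remain, and no gene of the 29 gene lists described below was among the 63.

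**Figure D2:**
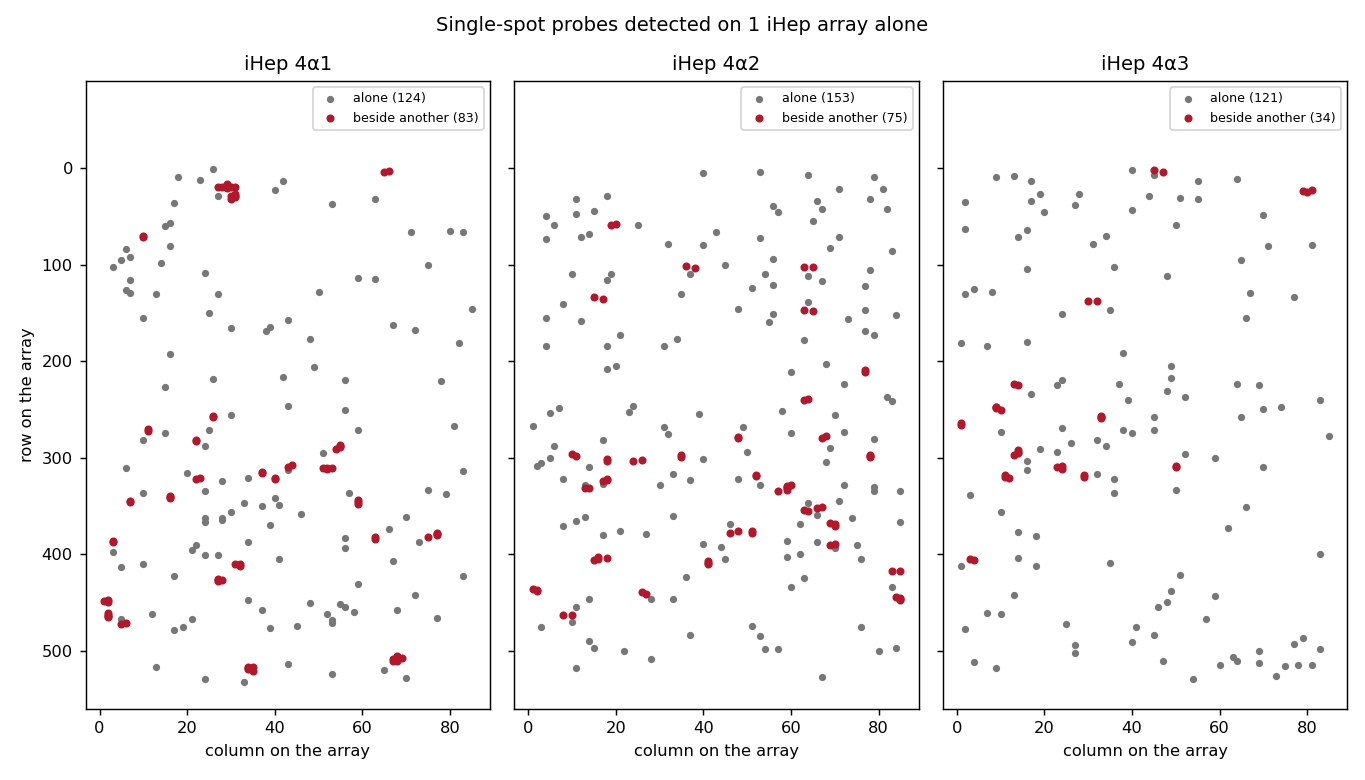
Row and column on the array of single-spot probes that were well above background on 1 iHep array alone and at least 2-fold above both others, for each type. Red points have another such spot of a different gene within 2 rows and 2 columns, which holds for 83 of 207 spots in 4α1, 75 of 228 in 4α2 and 34 of 155 in 4α3. In 4α1 many of them lie in tight groups.

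Other probes of the same genes could be read for a minority. Over other probes that were well above background on any iHep array, 80 higher genes had 100, of which 63 passed the same rule, 30 went the same way by less, 5 went opposite ways against the other types and 2 went the other way against both. For 71 lower genes there were 88 such probes, of which 46 passed, 29 went the same way by less, 9 were mixed and 4 went the other way. Among the 156 genes detected in 4α1 alone, 33 had another probe, and for 27 of them that probe was not well above background in 4α1.

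The transcription factor genes Foxa2, Foxa1 and Nr1h4 were detected in 4α1 and in neither other type. They were 3 of the 34 hepatocyte transcription factors compared (8.82%, against 2.23% of all genes), and 1 member was lower. Foxa2, which encodes a forkhead factor that opens chromatin at liver genes, is read by 10 spots on this array. Its probe lies at chr2:147734403-147734462 (mm8). Its level was -0.94 in 4α1, with the 10 spots between -1.05 and -0.87. In 4α2 it was -7.78 and in 4α3 -8.30, neither well above background, so that the difference was at least 36.3-fold and 37.4-fold. The highest spot for Foxa2 on either of those arrays read -6.87. On MEF 1, MEF 2 and MEF 3 it read -6.21, -3.91 and -4.09, above background on the latter pair, and in hepatocytes 3.94. The 4α1 value thus stood apart from those of the other iHep arrays and below that of hepatocytes.

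Foxa1, a related forkhead factor, stood at -3.06 in 4α1, -8.13 in 4α2 and -8.15 in 4α3, a difference of at least 8.31-fold and 8.55-fold. It was not above background on any MEF array and read -0.84 in hepatocytes. Nr1h4, the bile acid receptor FXR, stood at -1.58 in 4α1, -5.93 in 4α2 and -7.25 in 4α3 and at 4.82 in hepatocytes, a difference of at least 20.3-fold and 23.9-fold. Both are read by 1 probe in 1 spot, and neither spot lay beside another 4α1-only spot. Foxa3, the third member of the family, was at background in all 3 types (-7.97, -7.55 and -7.33) and read 1.95 in hepatocytes.

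Hnf4a, the nuclear receptor central to hepatocyte identity, was not apart from both types. It stood at -0.55 in 4α1, between -2.58 in 4α2 and 1.57 in 4α3, against 4.56 in hepatocytes and background on all MEF arrays.

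Promoter sequences are shown for the 3 factor genes detected in 4α1 alone and for 4 genes among the lower ones. These are the fatty acid binding protein Fabp1, the neighbouring antimicrobial lectins Reg3b and Reg3g, and the interferon-induced Oasl1. Each line gives the 150 bases before the annotated start, 5′ to 3′ on the strand of the gene, from RefSeq (GRCm38.p6). Capitals mark matches to 6 short motifs searched on both strands, namely TGTTTAC (forkhead), CAAAGTCC (HNF4), GAAANNGAA (interferon-stimulated), TGANTCA (AP-1), TATAAA and CCAAT. The positions are chr2:148046970-148047119 (minus strand, 1 of 3 starts listed) for Foxa2, chr12:57546112-57546261 (minus) for Foxa1, chr10:89506659-89506808 (minus) for Nr1h4, chr6:71199729-71199878 (plus) for Fabp1, chr6:78370735-78370884 (plus) for Reg3b, chr6:78468875-78469024 (minus) for Reg3g and chr5:114923090-114923239 (plus) for Oasl1.
Foxa2: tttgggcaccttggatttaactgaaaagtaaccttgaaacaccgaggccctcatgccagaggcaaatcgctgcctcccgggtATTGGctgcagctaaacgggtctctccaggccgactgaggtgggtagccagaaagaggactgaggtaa
Foxa1: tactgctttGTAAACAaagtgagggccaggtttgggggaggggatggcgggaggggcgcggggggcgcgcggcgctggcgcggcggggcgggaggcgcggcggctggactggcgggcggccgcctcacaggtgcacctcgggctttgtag
Nr1h4: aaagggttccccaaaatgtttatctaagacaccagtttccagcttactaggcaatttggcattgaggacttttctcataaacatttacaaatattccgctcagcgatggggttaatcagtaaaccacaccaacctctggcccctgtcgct
Fabp1: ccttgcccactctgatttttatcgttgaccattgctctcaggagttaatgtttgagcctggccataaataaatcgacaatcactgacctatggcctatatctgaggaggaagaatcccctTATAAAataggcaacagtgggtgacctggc
Reg3b: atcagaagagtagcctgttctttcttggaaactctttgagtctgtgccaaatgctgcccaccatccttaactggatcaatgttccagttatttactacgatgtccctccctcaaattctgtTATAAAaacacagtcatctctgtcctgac
Reg3g: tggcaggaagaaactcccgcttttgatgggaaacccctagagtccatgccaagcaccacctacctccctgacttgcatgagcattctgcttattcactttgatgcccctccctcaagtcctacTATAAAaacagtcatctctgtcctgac
Oasl1: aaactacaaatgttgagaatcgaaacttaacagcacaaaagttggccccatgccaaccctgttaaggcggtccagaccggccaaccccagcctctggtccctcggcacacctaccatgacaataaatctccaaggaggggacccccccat
Foxa1 held a forkhead match on the reverse strand from base -141, Foxa2 a CCAAT match from -68, and Fabp1, Reg3b and Reg3g a TATAAA match from -30, -29 and -27. The last 20 bases before the start were the same letters in Reg3b and Reg3g. Nr1h4 and Oasl1 held none of the letters searched in this window. Among genes with a promoter in the table, over 250 bases before the first listed start, the forkhead letters stood in 6 of 250 promoters of higher genes (2.4%), 7 of 173 of lower genes (4.05%) and 3.09% of all 27025. The HNF4 letters stood in 8 (3.2%), 7 (4.05%) and 1.22% and the interferon letters in 21 (8.4%), 11 (6.36%) and 7.16%. AP-1 letters stood in 8.8%, 6.36% and 6.87%, TATAAA in 14.8%, 19.7% and 13%, and CCAAT in 28%, 34.7% and 34.5%. A match is a description of letters and not a binding site.

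Genes of fibroblasts and the extracellular matrix were the largest group of higher genes among the lists by number. Of 78 compared, 12 were higher in 4α1 than in both types (15.4%, against 2.23% of all genes) and 1 was lower. Regardless of size, 50 of the 78 lay above both types, which is 64.1% against 32.6% of all genes. The median difference of the list was 0.34 from 4α2 and 1.07 from 4α3, against 0.05 and 0.03 over all genes. Under the 5 other scalings and sources of values, 10 to 12 members were higher and 46 to 52 lay above both types. In RNA from whole cultures, fewer cells of a kind and less RNA per cell cannot be told apart.

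Postn encodes periostin, a matrix protein that fibroblasts secrete. Its level was 1.20 in 4α1, -3.996 in 4α2 and -3.04 in 4α3, which is 36.6-fold and 18.8-fold higher in 4α1. The MEF arrays read 6.10, 5.86 and 5.85 and hepatocytes -2.69, so that 4α1 lay between MEF and the other types. The other Postn probe did not follow, since it was detected in 4α2 alone, at -4.62, and was at background in 4α1 and 4α3. Thy1, a surface glycoprotein used to sort fibroblasts, stood at 1.98 in 4α1, -2.65 in 4α2 and -0.79 in 4α3, with 5.92, 6.68 and 6.58 on the MEF arrays and -5.55, not above background, in hepatocytes. The differences for Thy1 were 24.8-fold and 6.82-fold, and another Thy1 probe passed the same rule.

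Col8a1, a short-chain collagen of basement membranes, read -0.36, -3.02 and -3.20 in 4α1, 4α2 and 4α3 (6.32-fold and 7.14-fold) against 6.36, 6.55 and 6.56 on the MEF arrays. Col5a3, a chain of fibrillar collagen V, read 0.60, -1.73 and -1.70, and Fmod, the collagen-binding fibromodulin, -0.53, -2.96 and -2.51. Further members of the list above both types were Col5a1, Col6a1, Col6a2, Col6a3, Col15a1, Tnc and Podn, from 2.05-fold to 8.96-fold, with Podn at background in the other types. Every gene of this paragraph except Col15a1 had a higher level on each MEF array than in 4α1.

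The fibroblast markers were not all on 1 side. Thy1, Col1a2, Pdgfra, Lum and Fn1 lay above both types in 4α1, with Thy1 alone past 2-fold from both. Col1a2, the partner chain in collagen I, stood at 5.15 against 4.52 and 3.52, and Pdgfra, a growth factor receptor of mesenchyme, at -0.64 against -1.49 and -1.45. Col1a1, the main chain of collagen I, stood between the other types, at 5.21 in 4α1, 5.44 in 4α2 and 4.02 in 4α3, as did Col3a1 and Dcn. Over the 8 fibroblast markers the log2 of their summed linear levels was 7.47, 7.54 and 5.94, with all 8 above background on each iHep array. Nt5e, the surface enzyme CD73 carried by many mesenchymal cells, was the 1 member of the list at least 2-fold below both types. It stood at -0.44 against 2.38 and 2.16 (7.07-fold and 6.09-fold lower). At any size 3 members of the list lay below both types.

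Of the leading higher genes detected on all 3 arrays, Ptn, Igfbp5 and Cemip were also high in MEF, while Serpinb11, Krt6a and Lyve1 were at background or dim there. Ptn, the growth factor pleiotrophin, read 1.14 in 4α1, -3.42 in 4α2 and -2.42 in 4α3, with 5.22, 4.99 and 5.01 on the MEF arrays. Igfbp5, which binds insulin-like growth factors, read 2.89, 0.13 and -1.80 and 4.69 to 4.71 on the MEF arrays. Cemip, a hyaluronan-degrading protein, read 0.31, -2.83 and -2.47. Ptn, Igfbp5 and Cemip share the order MEF, then 4α1, then the other types.

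Vcam1, an adhesion molecule induced by inflammatory signals, departed from that order. Its level of 4.31 in 4α1 was 7.64-fold and 7.63-fold above 1.38 in each other type, and it also lay above the MEF arrays, which read 2.26, 2.81 and 2.82. Of the 25 chemokine ligands compared, 4 were higher than in both types (16%, against 2.23% of all genes) and 0 were lower, with 2 higher under normexp background correction. At any size 7 lay above both types (28%, against 32.6% of all genes) and 4 below both (16%, against 23.6%). The list's median difference was -0.13 from 4α2 and 1.06 from 4α3, so the list as a whole was raised against 4α3 only. Ccl11, which draws eosinophils, stood at -3.32 in 4α1 and at background in both others (at least 6.95-fold and 7.16-fold). Cxcl13, which draws B cells, stood at 0.24 against -4.67 and -1.12 (30.2-fold and 2.57-fold). Cxcl14 stood at -3.20 and Cxcl3 at -3.14, against -4.99 and -4.86 in 4α2, and both were at background in 4α3. Ccl11 and Cxcl14 were above background on all MEF arrays, and Cxcl3 and Cxcl13 on none.

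Regulators of mesenchyme were split. Among 48 mesenchymal transcription factors, 4 were higher (8.33%, against 2.23% of all genes) and 3 lower (6.25%, against 1.34%), or 1 and 2 under normexp. At any size 26 (54.2%, against 32.6%) lay above both types. Snai1, a repressor of epithelial genes, was 2.15-fold and 3.13-fold higher in 4α1, at 1.66 against 0.56 and 0.02. Foxd1, a forkhead factor of stromal cells, was 21.6-fold and 8.96-fold lower, at -3.74 against 0.69 and -0.58, with -0.89, -0.26 and -0.26 on the MEF arrays. Another Foxd1 probe passed the rule as well. Of the 34 Hox genes compared, Hoxa2 and Hoxa7 were lower (5.88%, against 1.34% of all genes) and 0 were higher.

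Among 69 genes of Wnt and TGF-beta signalling, 5 were higher (7.25%, against 2.23% of all genes) and 3 lower (4.35%, against 1.34%), or 4 and 1 under normexp. Among the higher ones were the secreted antagonists Sfrp1 and Wif1, the ligand Wnt5a and the activin chain Inhbb. Sfrp1, which binds Wnt proteins, stood at -0.99 against -5.17 and -2.90 (18.1-fold and 3.77-fold). The other probe of Inhbb differed by -0.28 from 4α2 and 0.15 from 4α3. Lower were Sfrp2, the ligand Bmp2, at -5.21 against -3.76 and -3.51, and the matrix protein Tgfbi, at 1.19 against 2.53 and 3.48.

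The INK4 genes Cdkn2a and Cdkn2b, whose products hold cells in G1 by blocking D-type cyclin kinases, were higher in 4α1. Cdkn2b stood at 3.45 against 0.65 and 1.27 (6.98-fold and 4.52-fold), with 4.64, 5.03 and 5.03 on the MEF arrays and -2.27 in hepatocytes. Cdkn2a stood at 0.53 against -2.14 and -0.88 (6.39-fold and 2.67-fold), with 1.18, 0.65 and 0.01 on the MEF arrays. It is read by 10 spots, which lay between 0.49 and 0.65 in 4α1, -2.23 and -2.05 in 4α2, and -0.93 and -0.79 in 4α3. The probes lie next to each other on chromosome 4 (mm8, chr4:88745872-88777823).

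None of the 61 genes of cell division and DNA replication was 2-fold apart from both types, yet 56 of them (91.8%, against 23.6% of all genes) lay below both. The median difference was -0.67 from 4α2 and -0.43 from 4α3. Mki67, the proliferation antigen, lay 0.75 and 0.67 below the other types, and Top2a, a topoisomerase of dividing cells, 0.69 and 0.82 below (both chosen after their values were seen). The median level of the list was 0.84 in 4α1, 1.35 in 4α2, 1.54 in 4α3, 1.11 in MEF and -2.05 in hepatocytes. Under the other scalings and sources of values 56 to 58 genes lay below both types. These differences have no replicate check between types.

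**Figure D3:**
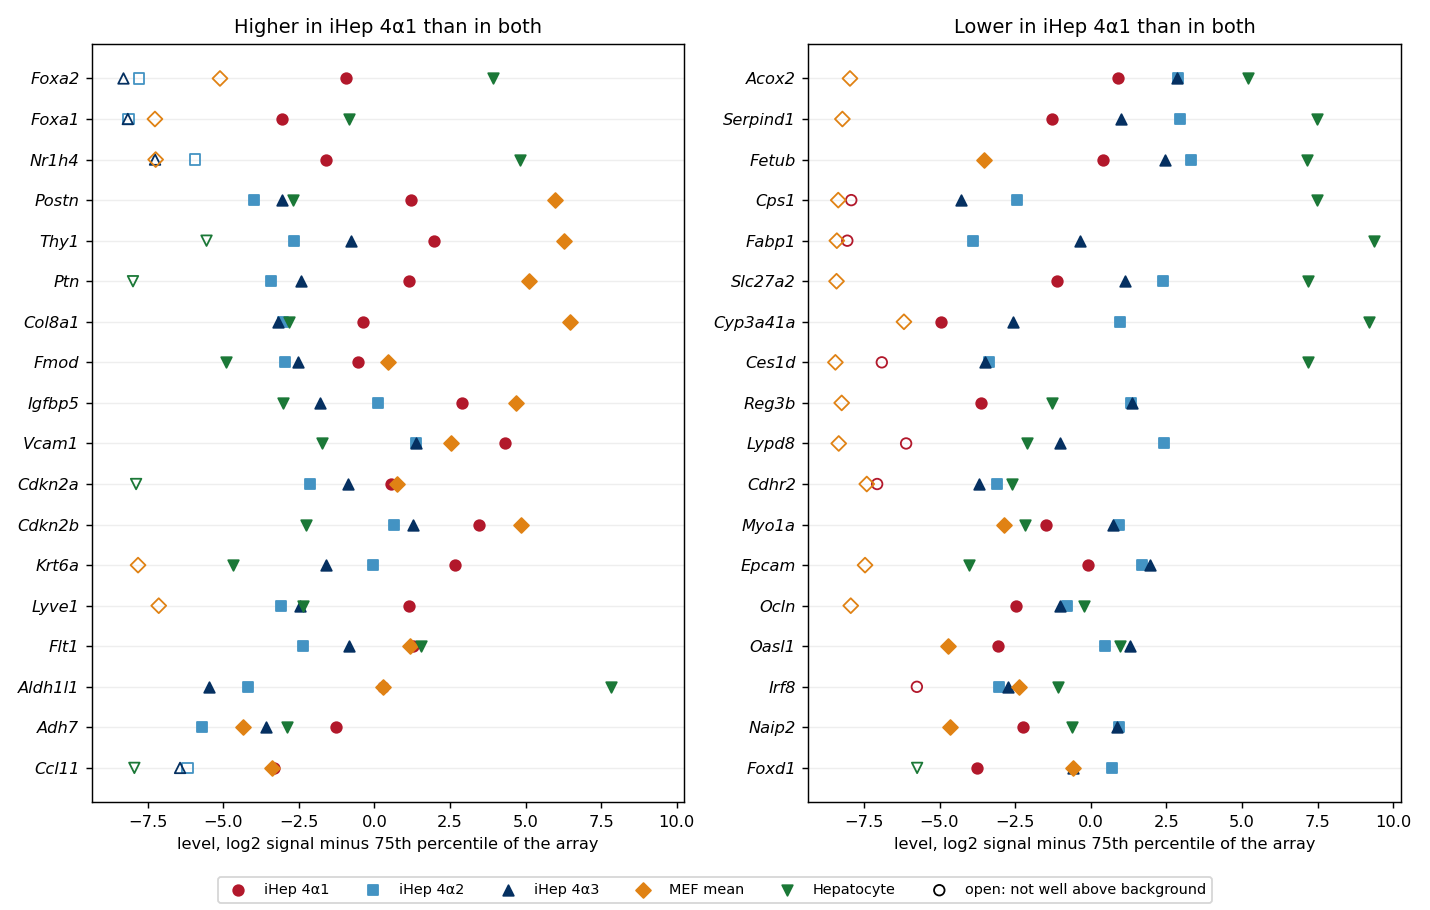
Level (log2 signal minus the 75th percentile of the array) of 18 genes higher and 18 genes lower in iHep 4α1, in each iHep type, as the mean over the MEF samples and in hepatocytes. Open symbols are not well above background, for MEF on at least 1 of the arrays. Among the higher genes Postn, Thy1 and Col8a1 lie between MEF and the other types, while Foxa2, Foxa1 and Nr1h4 lie between the other types and hepatocytes. Most lower genes lie between MEF and the other types.

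Liver genes were among the lower ones. Of 66 hepatocyte secreted proteins compared, 6 were lower than in both types (9.09%, against 1.34% of all genes) and 0 were higher. The list's median difference was -0.82 from 4α2 and 0.40 from 4α3, and at any size 17 of the 66 lay below both types (25.8%, against 23.6% of all genes) and 12 above both. Under normexp 3 members were lower. Serpind1, the thrombin inhibitor heparin cofactor II, stood at -1.27 in 4α1 against 2.94 and 0.996 (18.5-fold and 4.8-fold lower) and at 7.50 in hepatocytes. Fetub, a plasma protease inhibitor, stood at 0.41 against 3.32 and 2.45. Serpinf2, Apoc4, prothrombin (F2) and Ambp were lower by 1.09 to 2.46 on the log2 scale, with Ambp at background in 4α1.

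The best-known secreted products were not apart from both types. Alb, serum albumin, stood at 6.46 in 4α1, 7.92 in 4α2 and -0.20 in 4α3, with 9.95 in hepatocytes and background on the MEF arrays. Afp, the fetal counterpart of albumin, stood at 0.70, 5.18 and 0.34. Ttr, the thyroid hormone carrier, stood at -1.09, -1.16 and -4.05. Of the 10 hepatocyte markers, 8 were well above background in 4α1 and 9 in each other type, and the log2 of their summed levels was 8.95, 9.79 and 7.68, against 11.9 in hepatocytes.

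Cps1, which starts the urea cycle by making carbamoyl phosphate, was the hepatocyte marker that 4α1 lacked beside Cyp7a1, which no iHep array detected. Its level was -7.92 in 4α1, not above background, against -2.45 in 4α2 and -4.30 in 4α3, at least 10.8-fold and 2.99-fold lower. Hepatocytes read 7.48. Arg1, the last enzyme of the cycle, went the other way, at -2.75 in 4α1 against -5.38 in 4α2 (6.19-fold) and -6.10, at background, in 4α3 (at least 10.2-fold). Over the 53 genes of the urea cycle and amino acid catabolism these were the only members apart from both types. Each is 1.89% of the list, against 2.23% higher and 1.34% lower of all genes.

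Cytochrome P450 and other phase I enzymes were apart in both directions, with 7 higher and 8 lower of 65 compared. These were 10.8% and 12.3%, against 2.23% and 1.34% of all genes. The counts were 6 and 5 under normexp. Cyp3a41a, a drug-oxidising enzyme of the Cyp3a family, was 60.3-fold and 5.1-fold lower, at -4.94 against 0.98 and -2.59, and read 9.19 in hepatocytes. Cyp3a13, Cyp3a16 and Cyp3a44 were lower too, and so were Cyp2c65 and Cyp2c66 of the Cyp2c family. Another Cyp3a44 probe differed by -3.48 from 4α2 but only -0.29 from 4α3. The Cyp3a genes are close copies, so a probe may read more than 1 of them. Ces1d, a liver carboxylesterase, was not above background in 4α1 and stood at -3.35 and -3.51 in the other types, against 7.20 in hepatocytes.

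Among the higher enzymes, Adh7, which oxidises retinol and ethanol in stomach and skin, stood at -1.28 against -5.70 and -3.59 (21.5-fold and 4.98-fold). Cyp26b1 and Aldh1a3, which degrade and make retinoic acid, were 2.09-fold and 2.07-fold above 4α2 and 3.67-fold and 4.55-fold above 4α3. Cyp1b1, at 2.09 against 0.55 and 0.98, and Cyp1a1, at -0.76 against -2.42 and background in 4α3, are targets of the aryl hydrocarbon receptor. Another Cyp1b1 probe was detected in 4α3 alone, at -5.45. Fmo2 and Adh4 were also higher. Aldh1l1, the folate enzyme abundant in liver, had the largest smaller difference of the named higher genes detected on all 3 arrays, at 0.30 against -4.19 and -5.45 (22.5-fold and 54-fold), with 0.55, 0.06 and 0.01 on the MEF arrays and 7.84 in hepatocytes.

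Of 31 genes of bile acid metabolism and hepatic transport, 4 were lower (12.9%, against 1.34% of all genes) and 0 higher. The list's median difference was -0.70 from 4α2 but 0.28 from 4α3. At any size 9 lay below both types (29.0%, against 23.6% of all genes) and 6 above both. Fabp1, whose promoter is given above and which carries fatty acids in hepatocytes and enterocytes, was at background in 4α1 (-8.05) and stood at -3.89 in 4α2 and -0.36 in 4α3, with 9.36 in hepatocytes. Slc27a2, a fatty acid and bile acid ligase, stood at -1.11 against 2.40 and 1.12, and another of its probes passed the rule. Acox2, a peroxisomal oxidase of bile acid precursors, stood at 0.91 against 2.89 and 2.85. Slco2b1, an organic anion carrier, stood at -3.36 against -0.46 and -1.42. Conjugation enzymes (34 compared), sterol and fatty acid synthesis (44) and glucose and glycogen metabolism (45) had 0 members apart from both types.

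**Figure D4:**
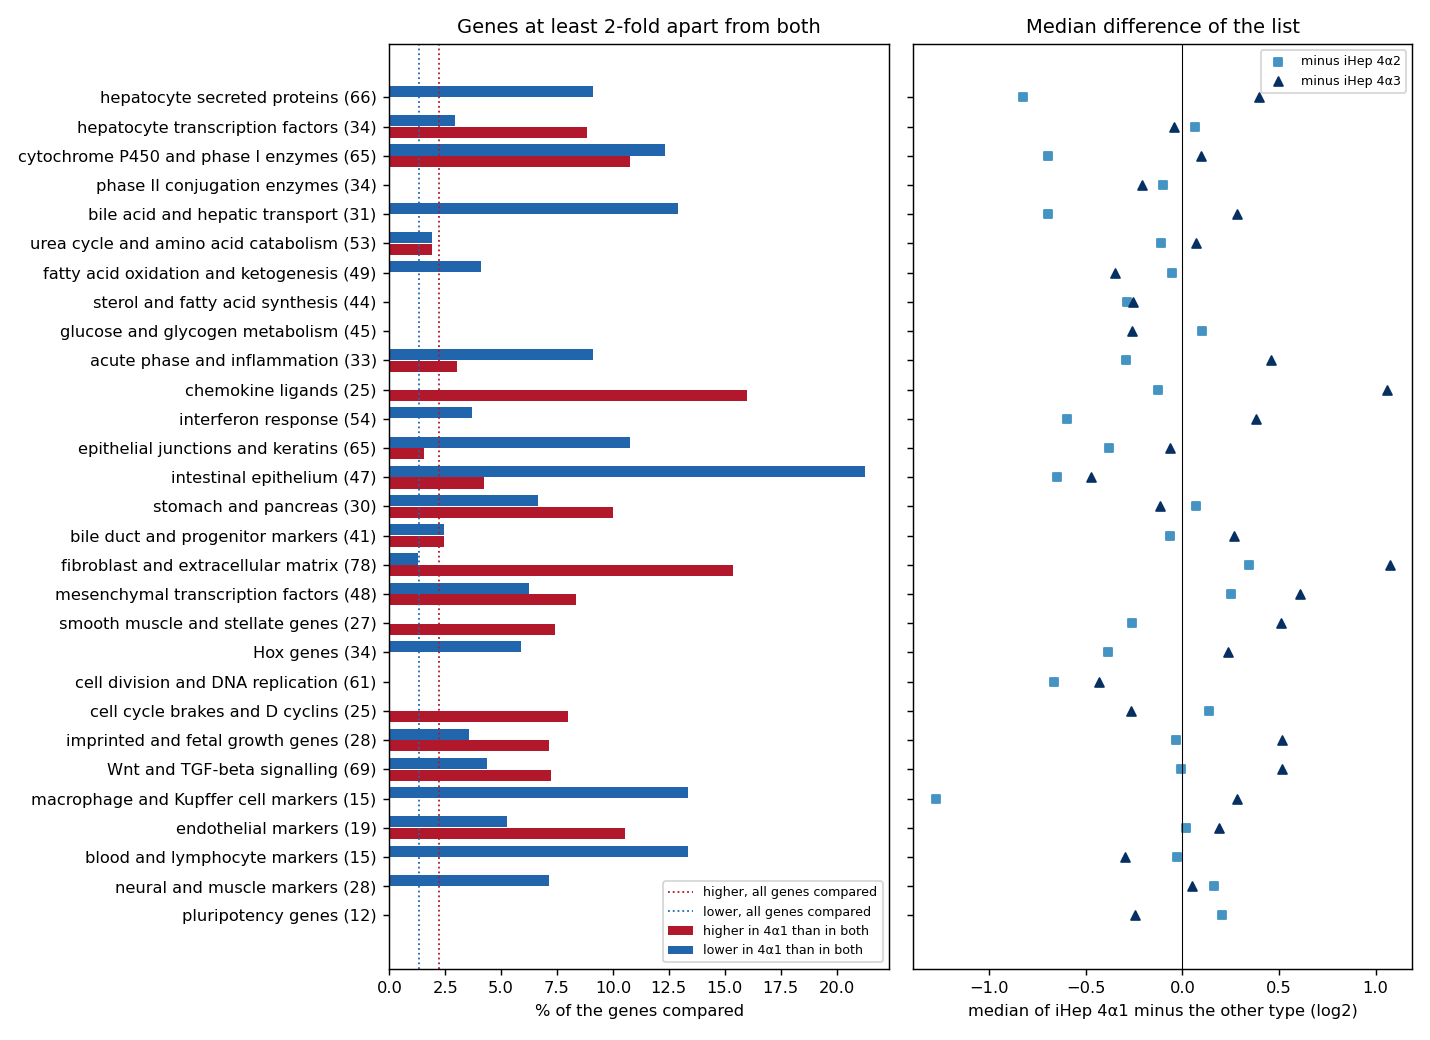
Left, share of each gene list (number compared in brackets) that was at least 2-fold higher or lower in iHep 4α1 than in both other types, with dotted lines at the share over all genes compared (2.23% higher, 1.34% lower). Right, median difference of each list from each other type (log2). The intestinal list has the highest lower share, 21.3%, and the fibroblast and matrix list a higher share of 15.4%.

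Genes of the intestinal epithelium had the highest share of lower members of any list, 10 of 47 (21.3%, against 1.34% of all genes), with 2 higher, Olfm4 and Ephb2. The median difference was -0.65 from 4α2 and -0.47 from 4α3. Under normexp background correction, which compresses dim signals, 4 were lower. The bile acid and hepatic transport list, with 3 lower of 31, then had the larger share. Reg3b, an antimicrobial lectin, stood at -3.62 in 4α1 against 1.34 and 1.35 (31.3-fold and 31.5-fold lower), with -1.29 in hepatocytes and no MEF array above background. Its neighbour Reg3g stood at 0.12 against 2.24 and 2.04 (4.35-fold and 3.79-fold). The pair lies at chr6:78302838-78395994 (mm8). Lypd8, an inhibitor of bacterial motility made by the colon that was entered in the stomach and pancreas list, was at background in 4α1 against 2.42 and -1.02 (at least 315-fold and 29-fold).

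Genes of the brush border were among them. Myo1a, a motor of microvilli, stood at -1.47 against 0.93 and 0.75, Cdhr2, a cadherin that links microvilli, at background against -3.10 and -3.69, and the actin bundler Vil1 at 3.84 against 4.85 and 6.27. Gpa33, Fcgbp and Hepacam2 were also lower, though another Gpa33 probe differed by -0.02 from 4α2 and -1.55 from 4α3, and Fabp1 and Cps1 belong to this list as well as to the liver lists. Cdx2, the intestinal homeobox factor, was not lower, at 3.24 in 4α1 against 2.31 and 3.59. Of the 6 intestinal markers, 5 were above background on each iHep array.

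Epithelial junction genes followed the same direction in part. Of 65 compared, 7 were lower (10.8%, against 1.34% of all genes) and 1, the placental cadherin Cdh3, was higher. Epcam, an epithelial adhesion molecule, stood at -0.10 against 1.68 and 1.97 (3.43-fold and 4.19-fold lower). Esrp1, a splicing factor of epithelial cells, stood at -2.51 against -0.84 and -0.44, and the tight junction genes Ocln, Tjp3 and Cldn23 and the receptors Ildr1 and Cxadr were lower by 1.02 to 3.39. Another Ocln probe differed by -0.63 and -0.56. The main epithelial genes did not differ by the rule. Cdh1 stood at 4.63, 4.59 and 5.20, Krt8 at 7.55, 7.48 and 8.31, Krt18 at 6.40, 6.48 and 7.66 and Krt19 at 7.18, 6.69 and 7.21 in 4α1, 4α2 and 4α3.

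Single innate immune genes were lower in 4α1. Oasl1, an interferon-induced inhibitor of antiviral translation, stood at -3.05 against 0.47 and 1.31 (11.5-fold and 20.5-fold lower). Irf8, an interferon regulatory factor of myeloid cells, was at background in 4α1 by its brightest probe, which read -3.05 and -2.72 in the other types, while another probe was above background on all 3 arrays and differed by -0.33 and -0.43. These were 2 of 54 interferon response genes (3.7%, against 1.34% of all genes), and the list's median difference was -0.60 from 4α2 and 0.38 from 4α3. Naip2, a sensor of bacterial proteins, stood at -2.25 against 0.94 and 0.88, and Il2rg, the common cytokine receptor chain, at background against -2.42 and -2.37. Tnf and Cd14, a cytokine and a coreceptor for lipopolysaccharide, were 3.65-fold to 3.91-fold and 2.4-fold to 2.43-fold lower.

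Markers of other cell types were present to different extents. Above background in 4α1, 4α2 and 4α3 were 6, 6 and 5 of 6 bile duct markers, 5 on each array of 6 stomach and of 6 intestinal markers, 3, 3 and 4 of 5 smooth muscle markers and 2, 2 and 1 of 3 neural markers. Of 5 blood and of 4 muscle markers, 1 was above background on each array. The part of such cells in the results was not tested. Of 7 macrophage markers, 3 were above background in 4α1, 3 in 4α2 and 2 in 4α3, and the log2 of their summed levels was -1.94, -1.05 and -1.76, against 2.63 in hepatocytes. The defining markers Adgre1, C1qa, C1qc and Clec4f were at background on all iHep arrays. Of the endothelial markers Pecam1, Cdh5, Kdr and Tie1 were at background on all iHep arrays as well, and the log2 of the summed level of the 6 endothelial markers, 1.20 in 4α1 against -2.27 and -1.86, came from Lyve1 and from Stab2, which read -3.75, -3.77 and -3.72. Lyve1, a hyaluronan receptor of lymphatic and sinusoidal endothelium, was 18.7-fold and 12.1-fold higher in 4α1, at 1.14 against -3.09 and -2.46, and Flt1, a receptor of VEGF, 12.4-fold and 4.34-fold higher. Other probes of both genes passed the rule.

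The remaining lists are small or had few members apart, and the shares over all genes are 2.23% higher and 1.34% lower. In acute phase and inflammation (33 compared) 1 was higher and 3 lower, in fatty acid oxidation (49) 0 and 2, in stomach and pancreas (30) 3 and 2, and in bile duct and progenitor markers (41) 1 and 1. Smooth muscle and stellate genes (27) gave 2 higher and 0 lower, cell cycle brakes and D cyclins (25) the 2 INK4 genes, and imprinted genes (28) 2 and 1. Macrophage (15), blood (15) and neural and muscle (28) lists each gave 0 higher and 2 lower, which is 13.3%, 13.3% and 7.14%. Endothelial genes (19) gave 2 and 1 and pluripotency genes (12) 0 and 0. Stomach and pancreas had 10% higher, and under normexp 1 higher and 1 lower. Under normexp the macrophage and blood lists had 1 and 0 lower. Among them the stomach protease precursor Pgc and the water channel Aqp5 were higher, and the lipopolysaccharide-responsive Lrg1 was lower.

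Of the 144 genes compared that are read by 10 spots, 5 were higher and 4 lower, beside 2.23% and 1.34% of all genes compared. Counts this small are no result about genes of this kind. For none did the spots in 4α1 overlap with those of either other type, which a 2-fold rule makes likely beforehand. Besides Foxa2 and Cdkn2a the higher ones were Kit, Bdnf and Ntng1. Kit, the receptor of stem cell factor, ranged from -1.39 to -1.24 in 4α1, from -6.24 to -5.35 in 4α2 and from -8.47 to -7.32 in 4α3, the last not above background. The neurotrophin gene Bdnf ranged from -0.94 to -0.76, from -2.30 to -2.07 and from -2.14 to -1.89. The lower ones were Tnf, which ranged from -4.58 to -4.12 in 4α1 and from -2.55 to -2.26 in both other types, Bmp2, Msx2 and Pax3.

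Against the reference arrays, the lower genes stood nearer to MEF in 4α1 than in the other types. For 180 of the 242 lower genes (74.4%) the MEF level lay nearer to 4α1 than to the mean of the others, against 51.9% of all genes compared. MEF levels were below all 3 types for 145 of the 242 (59.9%, against 36.5%). Hepatocytes were above background for 195 of them (80.6%) and nearer to 4α1 for 100 (41.3%, against 43.1% of all genes). The rule placed 4α1 below the other types, so a gene that is low in MEF had to lie nearer to 4α1, and these shares are a description.

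Among the higher genes, the 191 detected on all 3 iHep arrays and the 156 detected in 4α1 alone were counted apart. Detection defines these classes, and their median levels in 4α1 were -0.53 and -4.29. Fewer of the dimmer class detected on the reference arrays was therefore likely beforehand. Of the 191, 161 were above background on all MEF arrays (84.3%, against 93.9% of all genes detected on all 3) and 110 had a MEF level nearer to 4α1 (57.6%, against 52.2%). Hepatocytes lay nearer to 4α1 for 29 of them (15.2%, against 42.2%), and their median level was -5.14 in hepatocytes against -0.53 in 4α1. Of the 156, 32 were above background on all MEF arrays and 36 in hepatocytes, with no share over genes of like brightness to set beside them. Over all 404 higher genes, the MEF level lay nearer to 4α1 for 169 (41.8%, against 51.9% of all genes compared). The hepatocyte level did so for 85 (21%, against 43.1%). The rule placed 4α1 above the other types, so a gene low in a reference had to lie nearer to the others. A gene high in a reference had to lie nearer to 4α1, and these shares too are a description. Across the genes compared, 4α1 correlated with MEF 1 at 0.882 and with hepatocytes at 0.722. The values were 0.863 and 0.745 for 4α2 and 0.856 and 0.736 for 4α3.

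**Figure D5:**
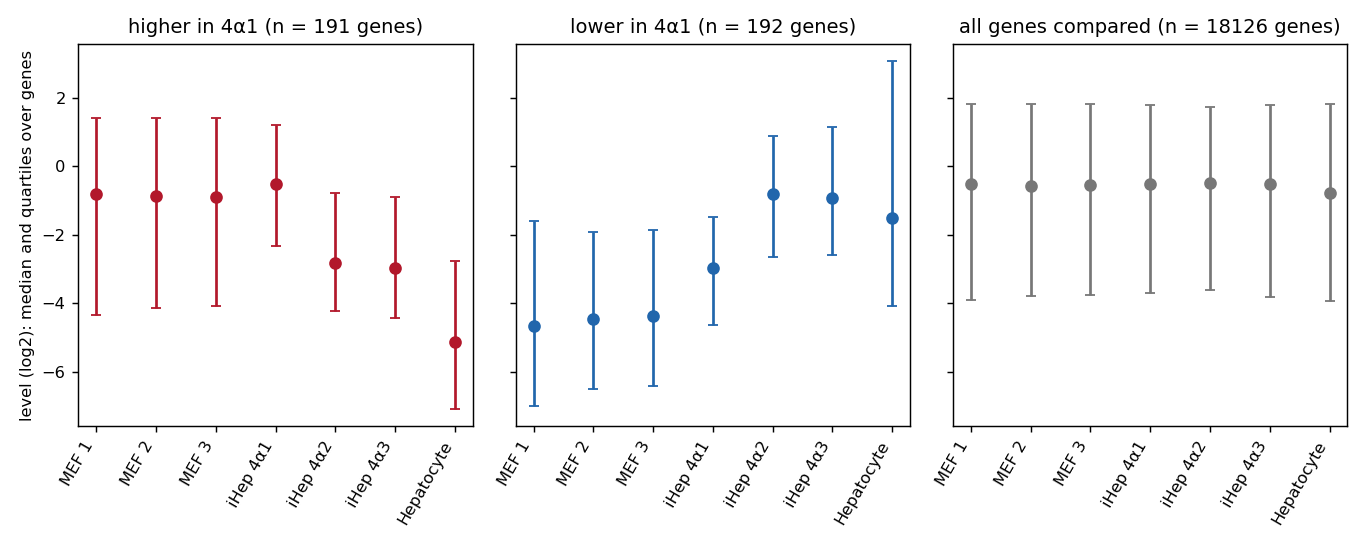
Median and quartiles over genes of the level (log2) on each of the 7 arrays, for the 191 higher and 192 lower genes that were well above background on all 3 iHep arrays and for all 18126 genes compared. The higher genes have medians of -0.82 to -0.90 on the MEF arrays, -0.53 in 4α1 and -5.14 in hepatocytes. The lower genes have medians of -4.65 to -4.37 on the MEF arrays, -2.97 in 4α1 and -0.83 and -0.93 in the other types.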

How the data were processed

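Per the file headers, the arrays (mouse whole genome, positions in build mm8) were scanned and quantified in Feature Extraction 9.5.1.1 of Agilent, and the deposited processed signal of each spot is a background-subtracted intensity on a linear scale, not scaled between arrays. Per the file headers, the files also hold flags and array positions, a unit other than a measurement. Of 43379 spots that were not controls, those with an outlier flag (66 to 104 per array) were dropped and repeat spots averaged, which left 41138 of 41174 probes. The brightest probe over the 7 arrays stood for a gene. Names came from RefSeq (GRCm38.p6) by accession for 24471 probes and by symbol for 8612, while 7794 kept the name of the file and 261 had none. The 75th percentile signal ran from 608 to 1484, and the detected share of probes from 60.2% to 68.7%. The number of arrays limits the precision.

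By a median-based spread, MEF 2 and MEF 3 differed by 0.45 to 0.77 times what repeat spots predict. They were averaged first, so the MEF level is the mean over 2 samples. Deposited alongside is a table of intensity values with a median of 66.4 in each column and 1 common distribution over the arrays. How it was made is not stated. Its log2 values kept the order of the scanner signals on every array, so its direction is settled, and it served as an alternative only.

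Named genes were the 12 leading ones of 4 classes (higher or lower, detected on all 3 iHep arrays or not), ranked by the smaller difference or by level, 15 fixed genes, and up to 6 members of each of 29 gene lists. Genes named outside this rule, such as members read by 10 spots, further members of a list or neighbours on a chromosome, were chosen after their values were seen. The lists, the rules and the markers were chosen with earlier results of these data known. The counting rule and the limma 3.58.1 fit (R 4.3.3, Benjamini-Hochberg, residual df 1 from the MEF samples) were tested on simulated data. Other analysis used Python 3.11 with pandas. Some genes are not reported here.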

Additional observations from a re-analysis of the deposited data

How the results depend on the processing

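With 1 array per type, no alternative changes what the design allows, and depth of signal limits the dim genes most. Counts are given below as higher and lower than both types, then higher and lower than 4α2, then higher and lower than 4α3. Median scaling, quantile and cyclic loess normalization, the authors' deposited table, levels with no floor, the demand that every probe of a gene pass, and both exclusions of 4α1 spots, which were added after seeing the data, kept these 6 counts within 1.5 times. The counts against both types were 305 to 466 and 182 to 302 there, and 341 and 242 without genes beside another 4α1-only spot. Under normexp with offset 50, which compresses dim signals by its construction, they were 179, 95, 348, 429, 838 and 674, of which 178 and 95 were shared with the 404 and 242. At 4-fold they were 132, 44, 197, 277, 482 and 305, and at 1.5-fold 815, 657, 1468, 1950, 3055 and 2678. With no filter on dim probes they were 735, 491, 1254, 1667, 2448 and 1952. Over genes well above background on all 3 iHep arrays, 191 were higher than both types, and 423 higher and 615 lower than 4α2. limma at an adjusted p under 0.05 gave 0, 0, 0, 0, 0 and 0. At an unadjusted p under 0.05 it gave 336, 260, 600, 888, 1429 and 1217.

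Higher genes with a hepatocyte level nearer to 4α1 numbered 85, and 151 under normexp. Without each MEF array in turn, 169 to 169 higher and 179 to 180 lower genes had a MEF level nearer to 4α1, and 223 to 257 higher and 130 to 166 lower genes were above background in MEF. Under normexp, 190 of 256 named differences and 9 of 58 list medians moved by more than 0.197, the median SD between the MEF samples, and 0 list medians did so under quantile normalization or with the deposited table. No paired analysis was possible because each iHep type has 1 array.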

Other observations

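Some members lay next to each other on a chromosome, and the runs below were picked after their values were seen. Within 100 kb of another member of the same direction lay 53 of 399 placed higher genes, in 24 runs, and 39 of 242 lower genes, in 19 runs. The same count was not taken over all genes compared, so these numbers cannot show whether members cluster. Such runs include close copies whose probes may read each other's transcripts.

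Keratins outside the simple epithelial pair Krt8 and Krt18 were a part of these runs. Of 30 keratins compared, 11 were higher in 4α1 than in both types, against 2.23% of all genes compared, and 0 were lower. They were Krt6a, Krt6b, Krt75, Krt78, Krt79, Krt86 and Krt87 on chromosome 15 and Krt15, Krt33a, Krt34 and Krt36 on chromosome 11, which are keratins of stratified epithelium and hair. The smaller difference ran from 1.01 to 2.71. Krt33a, Krt34, Krt36 and Krt87 rest on spots detected in 4α1 alone of the iHep arrays, none beside another such spot. Another Krt36 probe differed by 0.99 from 4α2 and 1.03 from 4α3. Krt6a, made in stressed and wound-edge epidermis, stood at 2.68 in 4α1, -0.03 in 4α2 and -1.61 in 4α3 and was not above background on any MEF array. Of the 11, 2 were above background on all MEF arrays and 1 in hepatocytes. Serpinb11, a serpin gene detected in no reference array, stood at 0.87 against -3.74 and -3.45 (24.5-fold and 19.9-fold).

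Of 14 carboxylesterases compared, 5 were lower (Ces1c, Ces1d, Ces1g, Ces2b and Ces2c) and 0 higher, and of 4 NAIP genes 3 were lower (Naip1, Naip2 and Naip5), against 1.34% of all genes. These families too were picked after their values were seen. Imprinted genes were split, with Mest at 2.06 in 4α1 against 0.19 and 0.01 and Ndn at 1.52 against 0.47 and -0.17, while Phlda2 lay below both types at -0.97 against 1.02 and 0.37.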
